A study of Homo sapiens with 4 samples.

Results

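The 44 genes described here are interferon-stimulated genes, chosen by symbol from a list of known targets of type I interferon signalling, out of 19225 entries in the table of gene counts, and each had exactly 1 entry. Type I and type III interferons bind receptors at the cell surface and activate a transcription factor complex, ISGF3, which contains the products of STAT2 and IRF9. ISGF3 binds a short promoter sequence, the interferon-stimulated response element (ISRE), and turns on genes whose products sense viral RNA, degrade it, block its translation or restrict viral entry and release. Many of these genes keep a low level of expression in cells that were given no interferon.

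RNA-seq had been carried out in HCC-LM3 cells, a human hepatocellular carcinoma (HCC) line with high metastatic potential, and in Huh-7 cells, a human hepatoma line. Per the study, both lines were stably transduced with lentiviruses that carried a short hairpin RNA against WDR4 (sh-WDR4-2), the partner subunit of the tRNA methyltransferase METTL1, or a scrambled control hairpin (sh-NC), and were selected with puromycin, so all 4 groups shared the virus, the selection and the labelled time of 48 h, and no source used here names an interferon treatment. There was 1 library per group, with 1 hairpin against WDR4 and no untransduced cells among the samples, and no label says whether the 2 libraries of a cell line came from separate cultures. The treatment labels of both sh-WDR4-2 libraries (WDR4 itself in HCC-LM3, an siRNA in Huh-7) do not match their source names, and the extraction text of the Huh-7 libraries names another tissue, so libraries are called by their source names.

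The libraries held 29807047 to 40572251 counts. WDR4 had 1009 counts in the HCC-LM3 sh-WDR4-2 library and 1604 in its sh-NC library, a ratio of 0.856 after normalization (95% counting interval 0.791 to 0.927). The Huh-7 libraries had 990 and 1077 WDR4 counts, respectively, and their ratio was 0.987 (0.904 to 1.08), so the label of the Huh-7 sh-WDR4-2 library was not borne out by a detectable fall of WDR4 mRNA. In HCC-LM3 cells the interval lay below 1 for 21.5% of all genes measured. The log2 fold change of WDR4 there (−0.22, 0.5 CPM added) lay between the 8th (−0.224) and 9th (−0.21) percentiles of all genes. A fall of this size was therefore not rare between the HCC-LM3 libraries. METTL1 had ratios of 0.814 (0.722 to 0.918) and 0.812 (0.697 to 0.944). Of the markers of the liver epithelium, KRT8 and KRT18 were high in both lines and HNF4A was high in Huh-7 only (1980 and 2033 counts, against 4 and 8 in HCC-LM3), while ALB and TTR were at 0 in all 4 libraries and AFP had at most 6 counts. APOA1 and APOB had 2869 to 5407 counts, but their symbols stand out of order in the table and are in doubt. The immune markers PTPRC and CD3E and the endothelial marker PECAM1 were at 0 in all 4 libraries. The description label of the HCC-LM3 sh-WDR4-2 library carries a code with the number 4 where the others carry 3, and that code and the hairpin cannot be told apart within HCC-LM3 cells.

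To look for sequences like the ISRE, the RefSeq promoters of the genes were searched for GAAANNGAAA on either strand, which reads TTTCNNTTTC on the other strand. Each promoter ran from 250 bases before to 50 after the start (GRCh38.p14). Promoters of 34 of the 44 genes could be matched, and 21 of these held the motif, compared with 996 of 27305 promoters in the table (3.65%). A match is a description of the letters and not evidence of binding. The following windows of 30 bases are given 5′ to 3′ on the strand of the gene, with 1 match in capitals. The promoter of IFI6 held 3 matches, and those of IFI27, ISG15, BST2, IFITM3, OAS3, IFI44L and IFIT1 held 2 each. In the ISG15 and BST2 windows a second, overlapping match starts in the lower-case letters before the capitals. The windows are for genes that the results turn on: 6 that lay below their sh-NC value in HCC-LM3 cells with sh-WDR4-2 (IFI6, IFI27, ISG15, BST2, IFITM3 and OAS3), the one that lay highest above it (ISG20), and 5 that differed past 2-fold between the cell lines (LGALS3BP, IFI44, IFI44L, IFIT1 and DTX3L).
IFI6 (chr1:27672266-27672295, minus strand): gcagagtgcaGAAATAGAAActccgacagg
IFI27 (chr14:94110631-94110660, plus strand): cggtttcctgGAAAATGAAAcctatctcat
ISG15 (chr1:1013380-1013409, plus strand): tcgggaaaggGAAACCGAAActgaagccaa
BST2 (chr19:17405735-17405764, minus strand): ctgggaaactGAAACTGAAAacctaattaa
IFITM3 (chr11:320876-320905, minus strand): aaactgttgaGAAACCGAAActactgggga
OAS3 (chr12:112938452-112938481, plus strand): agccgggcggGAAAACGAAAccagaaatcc
ISG20 (chr15:88638937-88638966, plus strand): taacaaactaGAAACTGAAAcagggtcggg
LGALS3BP (chr17:78979962-78979991, minus strand): gtggtttctgGAAATCGAAAgtagactctt
IFI44 (chr1:78649761-78649790, plus strand): gcacactgagTTTCAGTTTCctttctctga
IFI44L (chr1:78620365-78620394, plus strand): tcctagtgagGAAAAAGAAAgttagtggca
IFIT1 (chr10:89392510-89392539, plus strand): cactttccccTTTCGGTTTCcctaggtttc
DTX3L (chr3:122564322-122564351, plus strand): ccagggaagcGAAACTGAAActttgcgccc

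Both cell lines expressed a large part of the family without added interferon. Levels are given as CPM, counts scaled to a common library size after TMM normalization, in the order HCC-LM3 sh-WDR4-2, HCC-LM3 sh-NC, Huh-7 sh-WDR4-2 and Huh-7 sh-NC. Summed over the 44 genes the level was 2004, 2241, 1614 and 1626 CPM. The number of genes at 10 CPM or more was 30 in each HCC-LM3 library, 22 in the Huh-7 sh-WDR4-2 library and 23 in the Huh-7 sh-NC library, and the median level was 22.1, 23.7, 10.5 and 10.8 CPM. No gene of the family was at 0 in HCC-LM3 cells, whereas 6 genes (IFI44, IFI44L, OAS2, RSAD2, CMPK2 and XAF1) were at 0 in both Huh-7 libraries. Of all 19225 entries, fewer also had a count in the Huh-7 libraries (14484 and 14465) than in the HCC-LM3 libraries (15539 and 15633). The direction of this contrast is therefore not particular to the family. The share of all genes at 10 CPM or more in each library was not computed. In the deposited FPKM, which divide the counts by gene length, IFITM3 (319 and 393), BST2 (310.1 and 207) and IFITM2 (167 and 145) were among the 4 highest genes of the family in the sh-NC libraries of both HCC-LM3 and Huh-7 cells, as was LGALS3BP (292) in HCC-LM3 and ISG15 (87.8) in Huh-7.

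**Figure D1:**
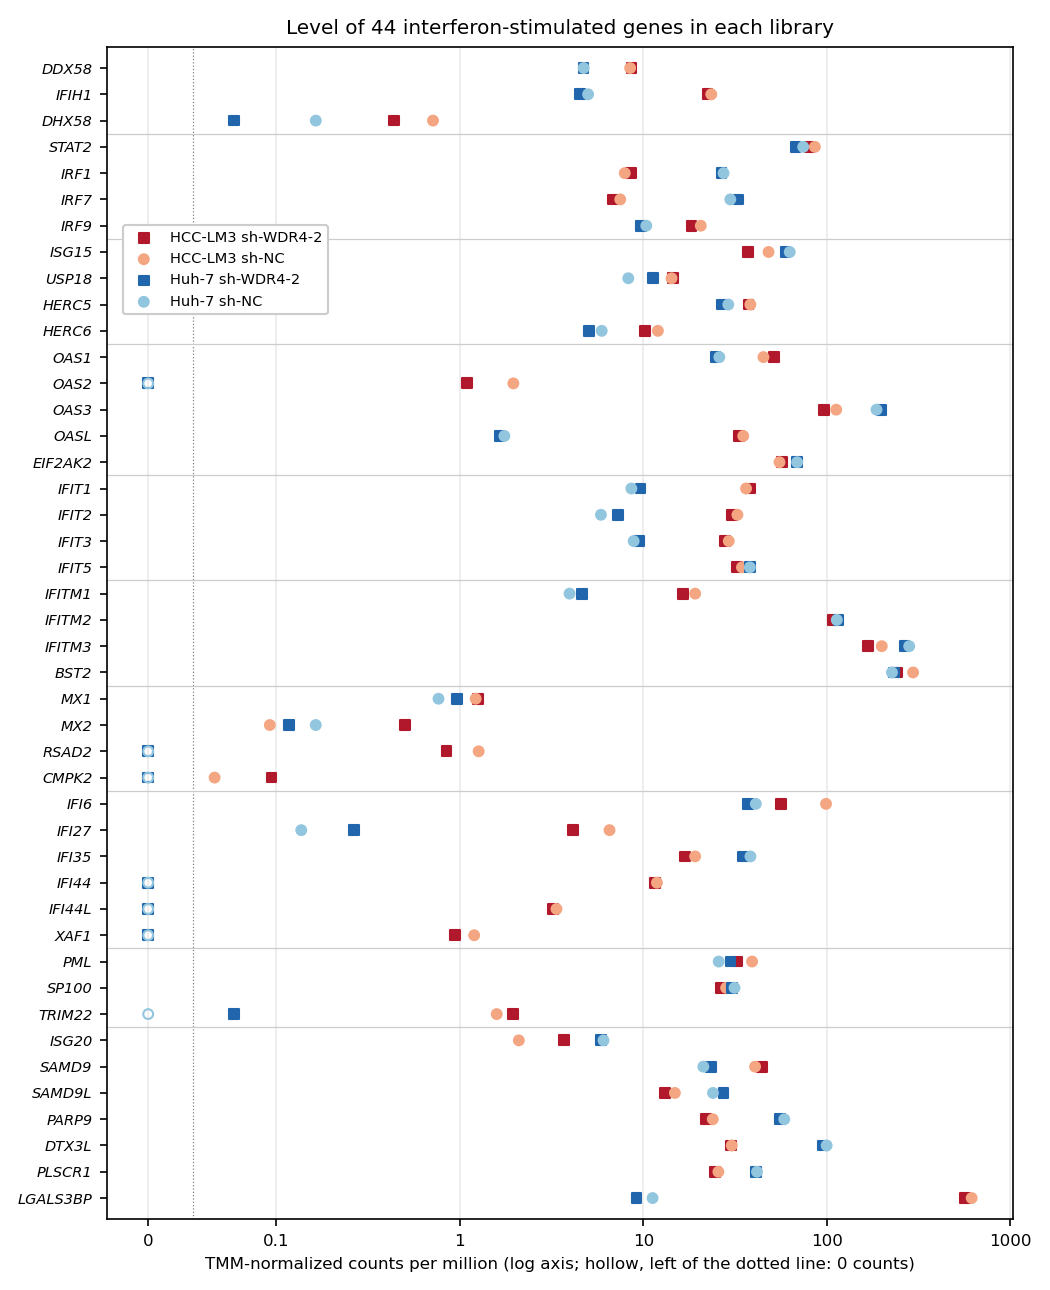
Level of each of the 44 genes in the 4 libraries, in TMM-normalized CPM on a log axis, grouped by role; squares are sh-WDR4-2 and circles sh-NC libraries, and hollow symbols at the left are 0 counts. The symbols of a cell line lie close together for most genes, and the cell lines lie far apart for LGALS3BP (615 and 11.2 CPM in the sh-NC libraries) and for IFI44 (11.9 CPM and 0).

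The first comparison was between the cell lines, each with 2 libraries. The genes did not differ in one direction: LGALS3BP, OASL, IFIT1, IFIT2, IFIT3, IFITM1 and IFIH1, for example, were higher in HCC-LM3 cells, and IRF1, IRF7, DTX3L, PARP9, ISG20, OAS3 and IFITM3 were higher in Huh-7 cells. With the shRNA as the other term of the model, edgeR's quasi-likelihood test found that 34 of the 37 genes tested differed between the lines at an adjusted p under 0.05, 21 of them higher and 13 lower in HCC-LM3 cells, where 38.9% of all genes tested were higher and 38.9% lower. Since 4 of the 37 (IFI27, IFI44, IFI44L and MX1) were under 1 CPM in Huh-7 cells and entered the test through HCC-LM3 alone, the count was also made without them, and 18 of 33 were higher and 13 lower. The 3 genes not called were IFITM2, MX1 and SP100. In the sh-NC libraries the 36 genes measured, those with a mean of at least 1 CPM, had a median log2 difference of 0.49 between HCC-LM3 and Huh-7 cells (0.5 CPM added), against 0.01 for all genes measured. Of the 36, 11 were past 2-fold higher and 5 past 2-fold lower in HCC-LM3 cells, against 13.2% and 12.6% of all genes. In the sh-WDR4-2 libraries the median was 0.31 over 38 genes, with 12 past 2-fold higher and 7 lower, against 13.9% and 12.3% of all genes. Some of these genes had under 1 CPM in Huh-7 cells and were measured only through their HCC-LM3 level (IFI27, IFI44 and IFI44L in the sh-NC libraries, and also MX1 and TRIM22 in the sh-WDR4-2 libraries), so their higher value was set by the filter. With at least 1 CPM required in both libraries, a requirement chosen after seeing the data, 33 genes were left in the sh-NC libraries, of which 8 were past 2-fold higher and 5 lower, against 8.13% and 11.3% of all genes, with a median of 0.38, against −0.03 for all genes. In the sh-WDR4-2 libraries 8 of 33 were higher and 7 lower, against 8.37% and 10.9% of all genes, with a median of 0.11, against −0.03. These p-values cover only the spread between the 4 libraries, and each line stands for itself alone.

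Of the cytosolic RNA sensors, IFIH1 (MDA5), which binds long double-stranded RNA, had 22.4 and 23.4 CPM in HCC-LM3 cells and 4.51 and 4.996 CPM in Huh-7 cells. The groups did not overlap, and the ratio of HCC-LM3 to Huh-7 in the sh-NC libraries was 4.69 (95% counting interval 4.01 to 5.52). DDX58 (RIG-I), the sensor of RNA with a triphosphate end, stood at 8.61, 8.47, 4.72 and 4.72 CPM, a ratio of 1.79 (1.49 to 2.16). DHX58 (LGP2), a regulator of both sensors, was near the limit of detection with 14, 31, 2 and 6 counts, and its ratio of 4.35 was known only to within 1.79 and 12.8. All counting intervals cover counting error only, since there was 1 library per group. They also treat counts as independent, which PCR copies of a molecule are not.

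Among the transcription factors the direction was mixed. IRF7, the amplifier of interferon production, had 6.83 and 7.48 CPM in HCC-LM3 and 33.0 and 29.8 CPM in Huh-7 cells, and its ratio of 0.251 (0.221 to 0.285) was the lowest of the family. IRF1, which activates part of the same genes in response to interferon gamma, was likewise lower in HCC-LM3 (8.55 and 7.91 CPM) than in Huh-7 cells (26.7 and 27.4 CPM), with a ratio of 0.289 (0.255 to 0.327). The ISGF3 subunits lay the other way. IRF9 had 18.3, 20.5, 9.70 and 10.4 CPM, a ratio of 1.98 (1.75 to 2.24), although 82.7% of its sequence is shared, as runs of 50 bases, with an overlapping read-through transcript, so that its reads could be divided. STAT2 had 80.4, 86.0, 67.5 and 74.3 CPM, with no overlap between the lines and a ratio of only 1.16 (1.10 to 1.22).

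ISG15, a ubiquitin-like protein that is joined to other proteins during the interferon response, had 37.3, 48.1, 59.4 and 62.7 CPM and was lower in HCC-LM3 cells, with a ratio of 0.766 (0.722 to 0.814). The other genes of the conjugation group were higher there. HERC6, a relative of the ligase HERC5, had 10.2, 12.0, 5.04 and 5.92 CPM, a ratio of 2.02 (1.72 to 2.38), and HERC5, the main human ligase, had a ratio of 1.32 (1.22 to 1.43). USP18, which removes ISG15 and damps receptor signalling, had 14.6, 14.2, 11.3 and 8.27 CPM and a ratio of 1.72 (1.498 to 1.98). USP18 shares 23.4% of its 50-base runs with other loci, chiefly USP41, and its reads could be split.

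The oligoadenylate synthetases, which make the signal that activates the RNA-cleaving enzyme RNase L, were divided between the lines although OAS1, OAS2 and OAS3 lie side by side on chromosome 12. OAS2 had 35 and 85 counts in HCC-LM3 and 0 in both Huh-7 libraries, at least 23.9-fold higher in the sh-NC libraries with a floor of 3 counts per library. OAS1 had 51.6, 45.1, 24.7 and 25.9 CPM, a ratio of 1.74 (1.61 to 1.88). OAS3, by contrast, was higher in Huh-7 cells (198 and 186 CPM) than in HCC-LM3 cells (96.7 and 112 CPM), with a ratio of 0.603 (0.581 to 0.626). OASL, a family member without the enzyme activity, had 33.1 and 35.0 CPM in HCC-LM3 and 1.64 and 1.75 CPM in Huh-7 cells, and its ratio was 20.04 (15.6 to 26.2). EIF2AK2 (PKR), the kinase that stops translation on double-stranded RNA, had a ratio of 0.802 (0.758 to 0.848).

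Of the 4 IFIT genes, several of whose proteins bind viral RNA with foreign ends, 3 were past 2-fold higher in HCC-LM3 cells in the sh-NC libraries. IFIT2 had 30.5, 32.5, 7.27 and 5.87 CPM, a ratio of 5.54 (4.80 to 6.43). IFIT1 (38.3, 36.3, 9.64 and 8.599 CPM) and IFIT3 (27.8, 29.2, 9.46 and 8.85 CPM) had ratios of 4.22 (3.73 to 4.77) and 3.30 (2.92 to 3.74). IFIT5, which lies in the same cluster on chromosome 10, differed little between the lines (32.3, 34.4, 38.2 and 38.0 CPM), with a ratio of 0.906 (0.841 to 0.975).

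Of the membrane proteins that restrict viral entry, IFITM1 was higher in HCC-LM3 cells, with 16.5, 19.1, 4.63 and 3.96 CPM and a ratio of 4.84 (4.05 to 5.81). IFITM3 was lower there, at 168, 199, 265 and 281 CPM, a ratio of 0.709 (0.689 to 0.730). IFITM2 (108, 114, 116 and 113 CPM) differed by less than the counting error in the sh-NC libraries, and had a ratio of 0.935 (0.893 to 0.979) in the sh-WDR4-2 libraries. These neighbours share 16% to 35.3% of their 50-base runs with other loci, chiefly each other, and how shared reads were counted is not given in the sources used here, so their separate values are uncertain. BST2 (tetherin), which holds budding virus at the cell surface, had 241, 295, 231 and 226 CPM and a ratio of 1.30 (1.27 to 1.34) in the sh-NC libraries, but just 1.04 (1.01 to 1.07) in the sh-WDR4-2 libraries.

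The MX and viperin genes, strong responders to interferon in most cells, were low in all 4 libraries. MX1, a GTPase that traps viral nucleocapsids, had 40, 53, 33 and 28 counts, and its ratio of 1.59 had an interval of 0.991 to 2.62. MX2, its homologue, had 16, 4, 4 and 6 counts. RSAD2 (viperin) had 27 and 55 counts in HCC-LM3 and 0 in both Huh-7 libraries, at least 15.5-fold higher in the sh-NC libraries. CMPK2, its neighbour on the opposite strand, had 3, 2, 0 and 0 counts, at or under the floor. RSAD2 and CMPK2 overlap in their coordinates, and whether strand was used in counting is not given in the sources used here.

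Of the 6 IFI and apoptosis-linked genes, 3 (IFI44, IFI44L and XAF1) were at 0 in both Huh-7 libraries. IFI44 had 371 and 515 counts in HCC-LM3 and 0 in both Huh-7 libraries, at least 145-fold higher in the sh-NC libraries, and its neighbour IFI44L had 103 and 146 counts and again 0 in both, at least 41.0-fold higher. IFI27, a mitochondrial protein linked to apoptosis, had 132, 284, 9 and 5 counts, a ratio of 47.9 (20.3 to 149). XAF1, a promoter of apoptosis, had 30, 52, 0 and 0 counts, at least 14.6-fold higher. IFI6, an inhibitor of apoptosis, had 56.3, 98.95, 37.0 and 41.0 CPM, and its ratio was 2.42 (2.28 to 2.56) in the sh-NC but 1.52 (1.41 to 1.64) in the sh-WDR4-2 libraries. IFI35 was the exception, at 16.9, 19.1, 34.9 and 38.3 CPM, a ratio of 0.4998 (0.458 to 0.545).

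Of the nuclear genes, PML, the scaffold of nuclear bodies, had 32.3, 39.1, 29.8 and 25.7 CPM and a ratio of 1.52 (1.40 to 1.65), and SP100, a component of the same bodies, had 26.6, 28.2, 30.4 and 31.4 CPM. TRIM22, a nuclear restriction factor, had 62, 69, 2 and 0 counts, at least 19.4-fold higher in HCC-LM3 cells in the sh-NC libraries. The other effectors were led by LGALS3BP, a secreted glycoprotein that binds galectins, with 563 and 615 CPM in HCC-LM3 and 9.17 and 11.2 CPM in Huh-7 cells. Its ratio was 54.9 (49.8 to 60.6), and edgeR gave a log2 difference of 5.85 ± 0.06 (SE) at an adjusted p of 1.56e-20. The SE and p cover only the spread between the 4 libraries, in a fit with 1 residual degree of freedom. With LGALS3BP left out, the other 43 genes summed to 1440, 1626, 1604 and 1615 CPM, so the summed level was then no longer higher in both HCC-LM3 libraries.

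DTX3L and PARP9, partners in a complex that marks histones and viral proteins, were lower in HCC-LM3 cells. DTX3L had 29.9, 30.3, 94.9 and 99.7 CPM, a ratio of 0.304 (0.285 to 0.324), and PARP9 had 21.9, 23.9, 55.6 and 58.6 CPM, a ratio of 0.408 (0.378 to 0.439). The genes start head to head and overlap in their coordinates, so that without strand their reads cannot be fully told apart. ISG20, an exonuclease that degrades RNA, had 3.70, 2.09, 5.89 and 6.06 CPM, a ratio of 0.345 (0.268 to 0.443). PLSCR1, a membrane protein that enhances the interferon response, had 24.5, 25.6, 40.9 and 41.6 CPM, a ratio of 0.616 (0.570 to 0.666). The neighbours SAMD9 and SAMD9L, which block viral translation, lay on opposite sides: SAMD9 had 44.1, 40.6, 23.3 and 21.2 CPM (1.91, 1.76 to 2.09) and SAMD9L had 13.1, 14.8, 27.3 and 23.9 CPM (0.620, 0.559 to 0.687).

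**Figure D2:**
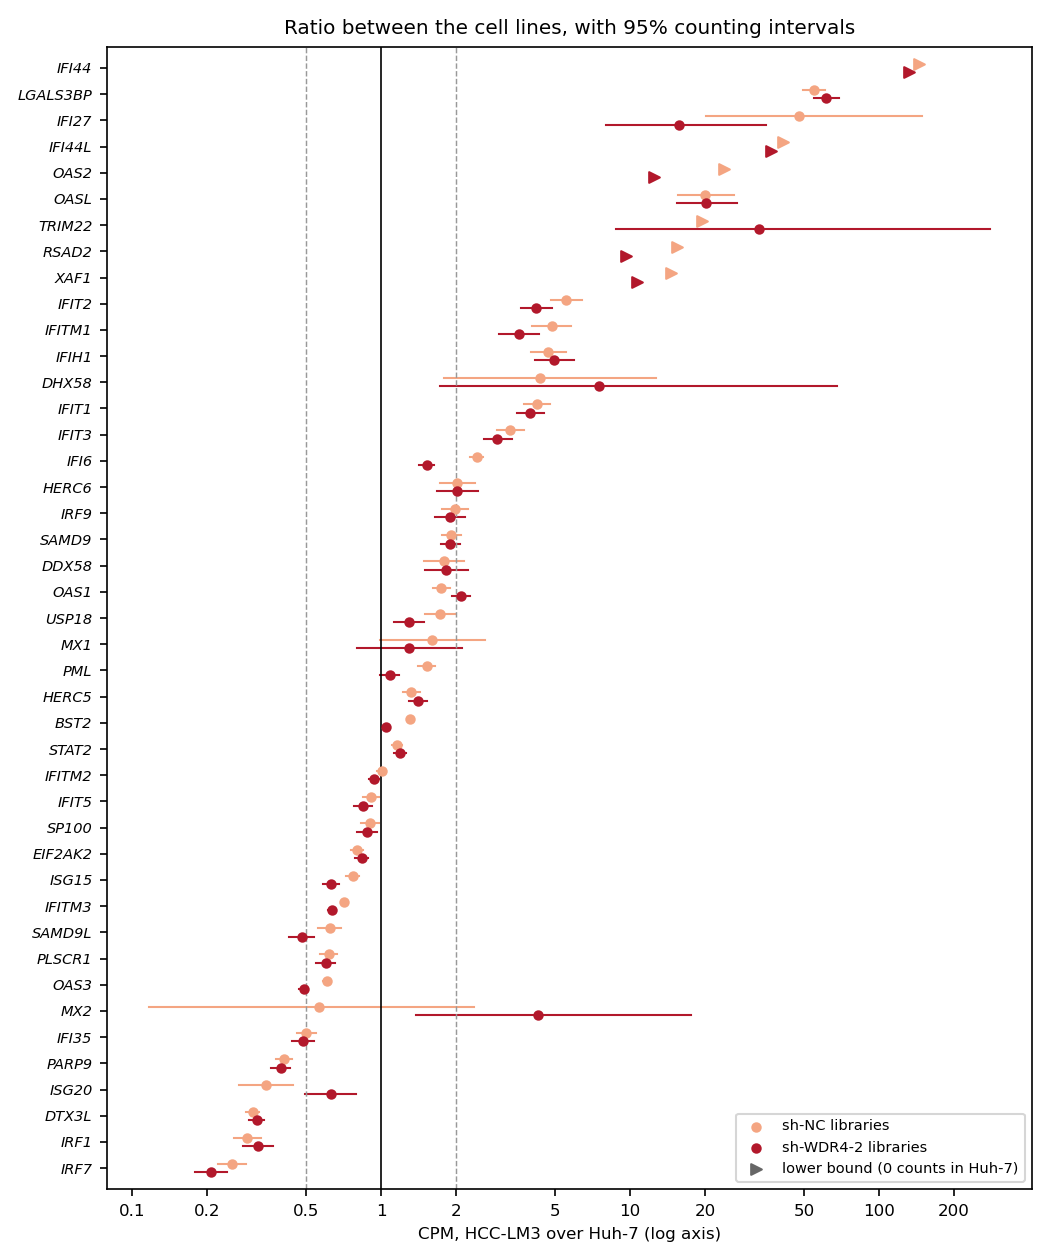
Ratio of CPM in HCC-LM3 to that in Huh-7 cells for each gene with a ratio or bound, in the sh-NC and in the sh-WDR4-2 libraries, on a log axis with 95% counting intervals; triangles are lower bounds where Huh-7 had 0 counts, and dashed lines mark 2-fold. The ratios run from 0.251 for IRF7 to at least 145 for IFI44 in the sh-NC libraries. In 10 of 37 genes compared, counting intervals do not overlap between the hairpins. That share was not computed for all genes, so the 10 are not read as a trait of the family. Among the 10 are IFI6 (2.42 and 1.52), BST2 (1.30 and 1.04) and ISG20 (0.345 and 0.628).

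The second comparison asked how the genes differed between the sh-WDR4-2 and sh-NC libraries of HCC-LM3 cells. Most of the family was slightly lower in the sh-WDR4-2 library, with IFI6, OAS2 and IFI27 lowest, and ISG20 was the only measured gene past 1.5-fold above its sh-NC value. Of the 41 genes measured, 31 were lower, against 51.1% of all genes measured, and the median log2 fold change was −0.09, against −0.003 for all genes. No gene of the family passed 2-fold, which 0.221% of all genes did upward and 0.0394% downward. At 1.5-fold, 3 of the 41 were lower (IFI6, OAS2 and IFI27) and 1 was higher (ISG20), against 0.465% and 1.37% of all genes. Counting intervals lay wholly below 1 for 16 of the 41 genes and wholly above 1 for 3, against 21.5% and 20.6% of all genes. Other lists were lower in the same library. All 4 measured liver epithelial markers were lower (median log2 fold change −0.12, 3 intervals below 1), but they include APOA1 and APOB, whose symbols are in doubt. The keratins KRT8 and KRT18 had ratios of 0.911 and 0.919. All 5 measured feedback inhibitors of interferon signalling were also lower (median −0.10, 3 intervals below 1). The part of these lists in the result was not tested. With 1 library per group the spread between cultures is unknown, so no p-value can be given and none of these differences has a replicate check.

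IFI6 had the lowest log2 fold change with 0.5 CPM added (−0.81), from 4301 counts (98.95 CPM) in the sh-NC to 1798 counts (56.3 CPM) in the sh-WDR4-2 library, a ratio of 0.569 (95% counting interval 0.538 to 0.602). OAS2 went from 1.96 to 1.10 CPM, a ratio of 0.561 (0.367 to 0.840). IFI27 went from 6.53 to 4.13 CPM, a ratio of 0.633 (0.511 to 0.781). All 6 genes of the IFI and apoptosis-linked group were lower, 3 of them with intervals below 1, and IFI44 at 0.981 (0.856 to 1.12) and IFI44L at 0.961 (0.739 to 1.24) were the nearest to 1. RSAD2, at 1.27 and 0.846 CPM, had a ratio of 0.668, whose interval of 0.405 to 1.08 included 1, as did that of XAF1 (0.785, 0.484 to 1.25).

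All 4 membrane restriction factors had intervals below 1: BST2 went from 295 to 241 CPM (0.816, 0.793 to 0.840), IFITM3 from 199 to 168 CPM (0.843, 0.815 to 0.872), IFITM1 from 19.1 to 16.5 CPM (0.862, 0.772 to 0.963) and IFITM2 from 114 to 108 CPM (0.951, 0.910 to 0.994). ISG15 went from 48.1 to 37.3 CPM, a ratio of 0.775 (0.721 to 0.833). LGALS3BP, the gene of the family with the most counts in these cells, went from 615 to 563 CPM, a ratio of 0.915 (0.898 to 0.933). The summed level of the family was different by −237.7 CPM, to which BST2 gave −54.2, LGALS3BP −52.2, IFI6 −42.6 and IFITM3 −31.2 CPM.

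The ISGF3 subunits STAT2 (0.935, 0.889 to 0.984) and IRF9 (0.889, 0.799 to 0.988) also lay below 1, and so did OAS3 (0.860), PML (0.827), HERC6 (0.849), IFI35 (0.884) and SAMD9L (0.880). Higher in the sh-WDR4-2 library were ISG20, from 91 counts (2.09 CPM) to 118 counts (3.70 CPM), a ratio of 1.76 (1.33 to 2.35), OAS1, from 45.1 to 51.6 CPM (1.14, 1.07 to 1.22), and SAMD9, from 40.6 to 44.1 CPM (1.09, 1.01 to 1.17). TRIM22 at 1.22 (0.854 to 1.75), second to ISG20 among the measured genes, and IRF1 at 1.08 (0.918 to 1.27) had intervals that included 1. The IFIT genes were between 0.938 and 1.06, all with intervals that included 1. Among the genes not measured, MX2 had 16 counts against 4, a ratio of 5.45 (1.76 to 22.4) that rests on these few counts, and DHX58 had 14 against 31, a ratio of 0.615 (0.302 to 1.19).

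By promoter, the 21 measured genes with a GAAANNGAAA match had a median log2 fold change of −0.07 in HCC-LM3 cells, with 16 lower, the 12 measured genes whose promoter held none had −0.14, with 9 lower, and the 8 measured genes with no matched promoter, OAS2 among them, had −0.09. These medians were not tested against each other. IFI6 and ISG20, past 1.5-fold on opposite sides, both held a match.

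**Figure D3:**
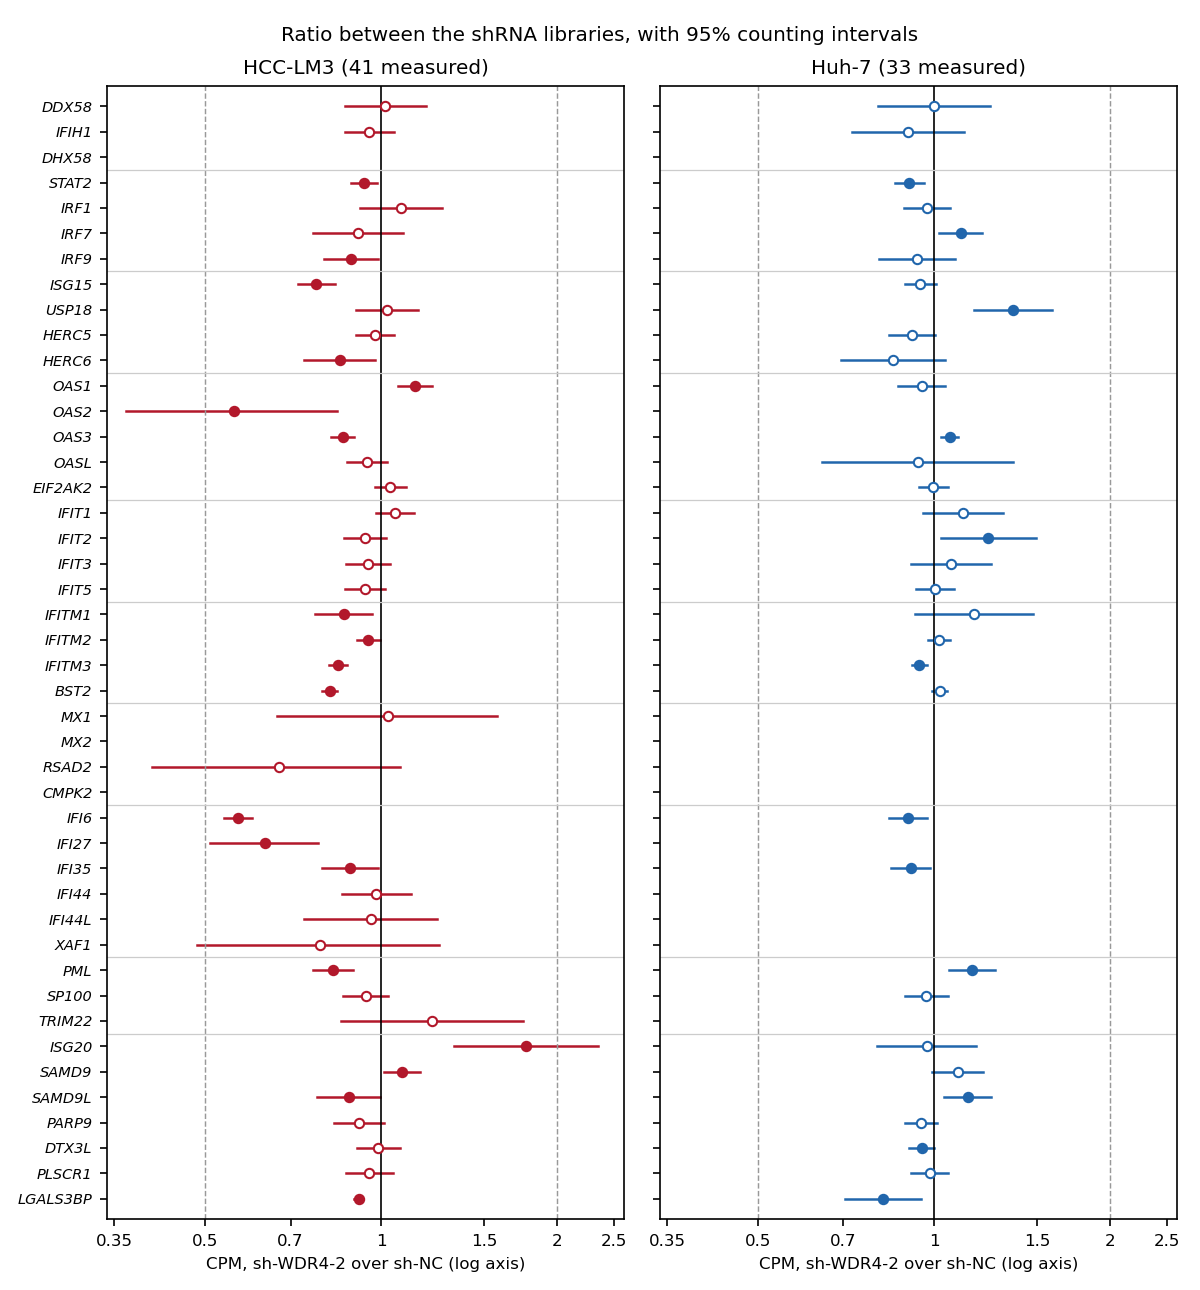
Ratio of CPM in the sh-WDR4-2 to that in the sh-NC library for each measured gene, by cell line, on a log axis; bars are 95% counting intervals, filled points have intervals that exclude 1, and dashed lines mark 2-fold. In HCC-LM3 cells 16 filled points lie below 1 and 3 above, and in Huh-7 cells 6 lie on each side.

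The third comparison was the same one in Huh-7 cells, whose WDR4 count differed by less than the counting error. The family was spread about its sh-NC values there, with USP18 and IFIT2 highest and LGALS3BP and HERC6 lowest. Of the 33 genes measured, 20 were lower, against 51% of all genes, and the median log2 fold change was −0.04, against −0.002 for all genes. None passed 2-fold (0.0668% of all genes upward and 0.0418% downward) or 1.5-fold (0.451% and 0.485%). Intervals lay above 1 for 6 genes and below 1 for 6, against 15% and 15.1% of all genes.

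USP18 had 303 counts (8.27 CPM) in the sh-NC and 385 counts (11.3 CPM) in the sh-WDR4-2 library, a ratio of 1.36 (1.17 to 1.59), where HCC-LM3 cells had 1.02 (0.905 to 1.16). IFIT2 went from 5.87 to 7.27 CPM, a ratio of 1.24 (1.03 to 1.49), and the other IFIT genes lay between 1.00 and 1.12 with intervals that included 1. PML (1.16, 1.06 to 1.27), SAMD9L (1.14, 1.04 to 1.25), IRF7 (1.11, 1.02 to 1.21) and OAS3 (1.06, 1.03 to 1.10) also lay above 1. MX1, with 33 against 28 counts, and IFITM1, with 158 against 145, had ratios of 1.26 and 1.17 whose intervals included 1.

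LGALS3BP was the lowest at a ratio of 0.817 (0.703 to 0.949), from 11.2 to 9.17 CPM. STAT2 (74.3 to 67.5 CPM, 0.908, 0.859 to 0.960), IFI6 (41.0 to 37.0 CPM, 0.904, 0.838 to 0.975), IFI35 (0.912, 0.843 to 0.986), IFITM3 (0.944, 0.918 to 0.971) and DTX3L (0.952, 0.908 to 0.999) were the others with intervals below 1. HERC6, from 5.92 to 5.04 CPM, and IFIH1, from 4.996 to 4.51 CPM, had ratios of 0.851 and 0.903 with intervals that included 1. IFI27, one of the lowest genes in HCC-LM3 cells, had only 9 and 5 counts here, and its ratio could lie anywhere from 0.581 to 7.34.

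**Figure D4:**
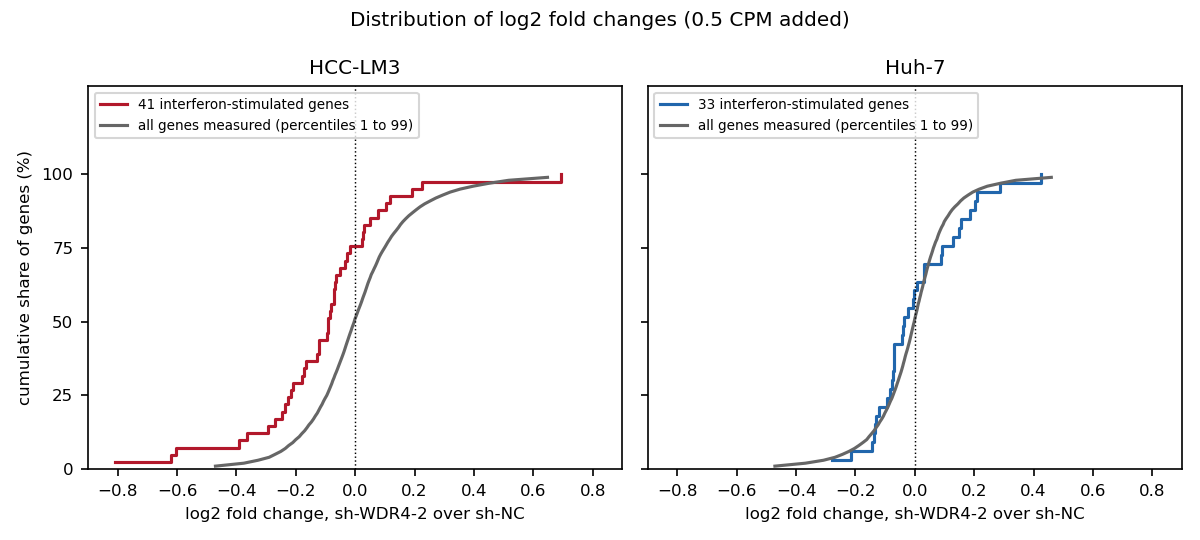
Cumulative share of genes against the log2 fold change (0.5 CPM added) between the sh-WDR4-2 and sh-NC libraries, for the measured interferon-stimulated genes (steps) and all genes measured (grey). The steps lie to the left of the grey line over most of the range in HCC-LM3 cells (median −0.09) and follow it in Huh-7 cells (median −0.04).

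Taking both cell lines as replicates of the hairpin, edgeR with the cell line as a block called 0 of the 37 genes tested, while 0.0158% of all genes were called higher and 0% lower. Before adjustment, 3 of the 37 (ISG15, IFITM3 and LGALS3BP) had p under 0.05 with a lower level and 0 with a higher one, against 2.92% and 2.18% of all genes, and DESeq2 also called 0, with 3 lower before adjustment. The lowest adjusted p of the family in edgeR was 0.859, shared by LGALS3BP and IFITM3, which were lower in both of 2 cell lines. The fit has 1 residual degree of freedom. IFI6 had ratios of 0.569 and 0.904 in the cell lines and an adjusted p of 0.969 in edgeR.

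The genes that act before and beside the family gave no larger differences between the hairpins. Interferon genes themselves were nearly silent: of 9 listed, IFNA2, IFNG and all 3 listed IFNL genes were at 0 in all libraries, IFNB1 had 2 counts in the Huh-7 sh-NC library and 0 elsewhere, and IFNE had the most, at 42, 47, 10 and 8 counts. All 6 listed interferon receptor chains were measured in both lines, and none passed 1.5-fold between the hairpins. The 5 listed receptor-linked kinases and STAT proteins were all lower in the HCC-LM3 sh-WDR4-2 library, 3 of them with intervals below 1 (against 51.1% and 21.5% of all genes), and 1 of 5 was lower in Huh-7 cells (against 51%). Between the cell lines, TMEM173 (STING), the adaptor of cytosolic DNA sensing, had 407, 510, 16 and 11 counts, and TLR3, an endosomal RNA sensor, had 8, 15, 84 and 86 counts.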

How the data were processed

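The authors deposited 1 table of raw counts and FPKM per gene symbol for 4 libraries of established cell lines. How reads were aligned and counted, and how reads that fit several genes were treated, is not given in the sources used here. Bowtie 0.12.2 and builds of the mouse genome (mm8, mm9) appear, without a role, in notes on processing from the submitters. The deposited FPKM, which the authors computed, were used only to rank genes by level.

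R 4.3.3 with edgeR 4.0.16 gave the TMM factors 1.07, 1.07, 0.933 and 0.934. A gene was called measured where the mean of the 2 libraries compared reached 1 CPM. Calls at 2-fold and medians used log2 values with 0.5 CPM added, while printed ratios had nothing added and carry exact conditional binomial 95% intervals. A floor of 3 counts per library (0.0690 to 0.0940 CPM) stood for 0 in bounds. Tests across all genes were edgeR's robust quasi-likelihood test in genes whose mean of the 4 libraries reached 1 CPM, checked on simulated data, and DESeq2 1.42.0, with Benjamini-Hochberg adjustment. Libraries were paired by cell line, taken from the labels. Ratios and intervals were computed with scipy 1.17.1, numpy 2.4.6 and pandas 2.3.3 in Python 3.11.15, and figures were drawn with matplotlib 3.10.9.

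The table's entries lie in the order of a Python dictionary of 32768 places. Of 19225 entries, 231 stood out of that order, which puts their symbols in doubt, and 0 of the 44 genes were among them. Gene overlaps and shared 50-base runs come from GENCODE release 29.

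The genes, their roles and all lists were chosen with earlier results of these data known. Full values go to genes past 2-fold, in each cell line the 5 genes that rose most and the 5 that fell most among those with at least 50 counts, the 8 largest differences between the lines in each direction, genes called by edgeR for the hairpin, and genes at 0 in Huh-7 cells. BST2, IFITM2, IFITM3, the other IFIT genes, DDX58, DHX58, MX2, IRF9, SP100 and SAMD9L were given after their values were seen.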

Additional observations from a re-analysis of the deposited data

Results flagged for a closer look

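In 3 of the 33 genes measured in both lines, 95% counting intervals of the ratio of sh-WDR4-2 to sh-NC excluded 1 on opposite sides. The ratio of these genes lay below 1 in HCC-LM3 cells and above 1 in Huh-7 cells. The ratios were 0.860 and 1.06 for OAS3, 0.827 and 1.16 for PML, and 0.880 and 1.14 for SAMD9L, in HCC-LM3 and Huh-7 cells respectively. Of all genes measured, 21.5% had intervals below 1 in HCC-LM3 cells and 15% had intervals above 1 in Huh-7 cells. The share of all genes with both was not computed, so the 3 genes are not read as a trait of the family. Whether the ratios of a gene differ between the lines was not tested, since each group has 1 library.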

How the results depend on the processing

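With 1.5-fold in place of 2-fold, 4 genes of the family passed in HCC-LM3 cells instead of 0 (1 higher and 3 lower), and 0 in Huh-7 cells. The other alternatives, which were other size factors, library totals, another pseudocount and other filters, left both counts at 0. The median log2 fold change ranged from −0.0912 to −0.0882 in HCC-LM3 and from −0.0439 to −0.0303 in Huh-7 cells. The median difference between the lines in the sh-NC libraries was 0.30 at a mean of at least 10 CPM, 0.38 with at least 1 CPM in both libraries (chosen after seeing the data), 0.67 with no filter and 0.69 by library totals, where the median of all genes also moved, to 0.198. With genes at 0 in Huh-7 set to their bound it was 0.49. The number of genes called for the hairpin was 0 with the cell line as a replicate block and 0 with no replicate block, and the lowest adjusted p of the family was 0.5528 to 1 over these fits. For the cell lines, 27 genes were called at a mean of at least 10 CPM, 31 by DESeq2, 32 with no shRNA term and 38 with no filter. Leaving out each library in turn, with no shRNA term, gave 29 to 33 calls, an alternative chosen after seeing the data that assumes that the lone library varies like the others. Depth limits MX2, DHX58, CMPK2 and, in Huh-7 cells, IFI27 and MX1, whose low counts leave wide intervals, and the absence of replicates limits every difference within a cell line.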
